A study of Mus musculus with 8 samples.

Results

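Collagen is built inside the cell, in the endoplasmic reticulum (ER), and finished outside it, and the 10 genes described here encode enzymes and helpers of both stages. They are the prolyl 4-hydroxylase alpha subunits P4ha1, P4ha2 and P4ha3, the lysyl hydroxylases Plod1 and Plod2, the collagen chaperone Serpinh1, the lysyl oxidases Lox, Loxl1 and Loxl2, and the procollagen processing enhancer Pcolce. They were chosen by gene symbol and are 10 of the 23238 gene symbols counted. All 10 were among the 13347 genes with enough reads to be tested.

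The RNA was that of uterine stroma, the connective tissue under the epithelium, in ovariectomized mice of the strain given as C57BL/6-ICR. All mice carried floxed Atg7, which encodes an enzyme needed for autophagy. In control mice (CON) it was intact, and in deleted mice (KO, Atg7d/d) Cre recombinase expressed from the Amhr2 gene, active in the mesenchyme of the female tract, had removed it. Mice of both genotypes received oil or estradiol (E2), the main ovarian estrogen, which gives control oil, control estradiol, deleted oil and deleted estradiol groups of 2 libraries each. No group carried Cre with Atg7 intact, so Cre and the deletion cannot be told apart, and the labels used here give no age, dose, time after injection or way of isolating the cells. Whether the 2 libraries of a group are from different animals is not stated there, so p-values here speak only of the spread among these samples, which may be technical.

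Newly made procollagen chains need hydroxyl groups on their prolines, placed by prolyl 4-hydroxylase, before they form a triple helix that is stable at body temperature. Lysyl hydroxylases modify lysines that later carry sugars or take part in cross-links, and Serpinh1 protein (Hsp47) binds the folded helix in the ER and travels with it toward the Golgi. Outside the cell the propeptides are cut off and lysyl oxidases oxidize lysines and hydroxylysines, from which covalent cross-links form. In the uterus collagen is the main fibre of the stroma, and its amount and cross-linking are known to change with the cycle, with pregnancy and with estrogen.

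Library totals ran from 5458390 to 6951080 counts. The libraries were made with QuantSeq, which reads the 3′ ends of transcripts, so counts do not grow with transcript length. How fully the 3′ end of each gene was captured and counted was not checked, so comparisons of level between genes are approximate. Levels are given as CPM, that is, counts divided by the TMM-scaled library total and set to a common scale. Atg7 itself had 20 to 33 reads in every library, with 22 and 32 in control oil and 21 and 33 in deleted oil. Reads from the 3′ end do not check a deletion of internal exons, so the genotype labels could not be checked in this way.

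Estradiol went with higher levels of 8 of the 10 genes in control stroma and of the same 8 in deleted stroma, and no member fell. By edgeR's quasi-likelihood test with Benjamini-Hochberg adjustment over all tested genes at 0.05, 15.8% of genes rose in control stroma and 13.1% in deleted stroma. Another 14.0% fell in control and 11.2% in deleted stroma. The 8 that rose were P4ha3, Plod1, Plod2, Serpinh1, Lox, Loxl1, Loxl2 and Pcolce. P4ha1 and P4ha2 did not pass in either genotype. The median log2 fold change of the 10 was 1.80 in control and 1.62 in deleted stroma, against 0.01 and 0.02 over all tested genes. For each of the 10 genes, both estradiol libraries were above both oil libraries of the same genotype, which held for 33.8% of all tested genes in control and 35.5% in deleted stroma. In these bulk samples a change in the number of cells that make an RNA and a change in RNA per cell cannot be told apart.

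**Figure D1:**
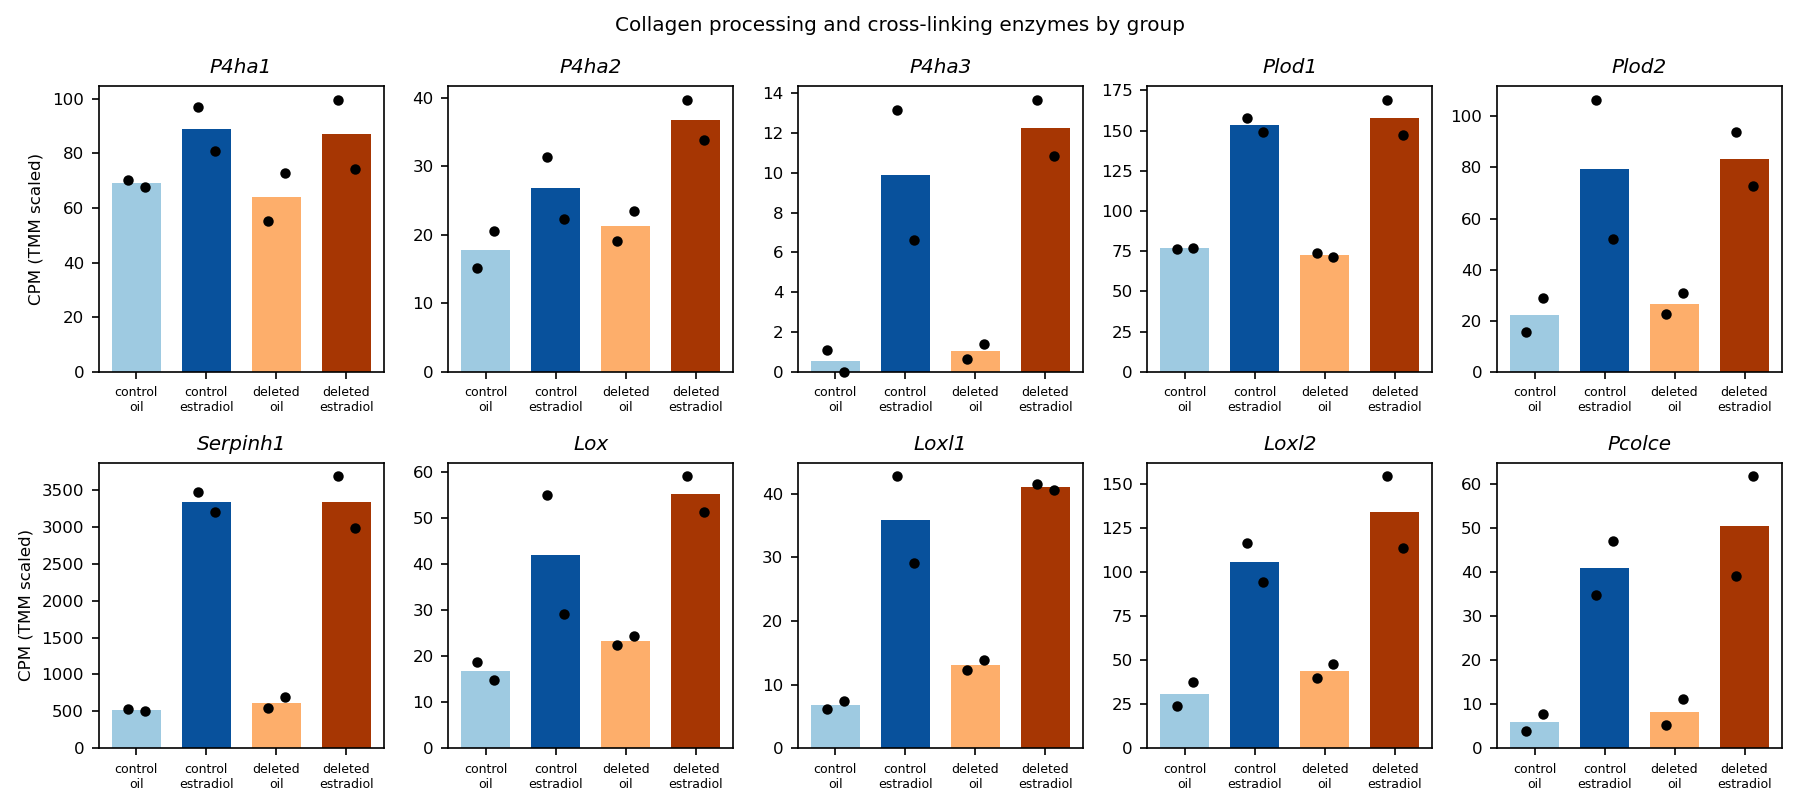
Level of each of the 10 genes, in CPM scaled with TMM factors, with 1 panel per gene. Bars are means of the 2 libraries of a group and start at 0, and points are the libraries. In every panel both estradiol points stand above both oil points of the same genotype, and Serpinh1, near 3339 CPM after estradiol, is far above the other genes.

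Prolyl 4-hydroxylase is a tetramer of alpha subunits, which carry the catalytic site, and of protein disulfide isomerase, the product of P4hb. The 3 alpha subunit genes differed in level and in what they did with estradiol, and the windows around their start sites are shown here with that of Serpinh1, the most abundant member. Each runs from 250 bases before to 50 bases after the RefSeq start on build GRCm38.p6, 5′ to 3′ on the gene's own strand. They are P4ha1 at chr10:59323046-59323345 (plus strand), P4ha2 at chr11:54100674-54100973 (plus), P4ha3 at chr7:100285270-100285569 (plus) and Serpinh1 at chr7:99353190-99353489 (minus). Capitals mark ACGTG on either strand, the core of the sites bound by hypoxia-inducible factors, for which P4ha1 and P4ha2 are known targets.
P4ha1: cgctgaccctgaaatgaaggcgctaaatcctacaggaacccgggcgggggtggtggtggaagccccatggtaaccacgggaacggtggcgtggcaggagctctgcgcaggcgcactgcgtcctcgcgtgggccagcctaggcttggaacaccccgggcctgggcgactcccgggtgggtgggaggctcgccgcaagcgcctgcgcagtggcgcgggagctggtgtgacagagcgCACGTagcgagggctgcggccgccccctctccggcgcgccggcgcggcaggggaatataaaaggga
P4ha2: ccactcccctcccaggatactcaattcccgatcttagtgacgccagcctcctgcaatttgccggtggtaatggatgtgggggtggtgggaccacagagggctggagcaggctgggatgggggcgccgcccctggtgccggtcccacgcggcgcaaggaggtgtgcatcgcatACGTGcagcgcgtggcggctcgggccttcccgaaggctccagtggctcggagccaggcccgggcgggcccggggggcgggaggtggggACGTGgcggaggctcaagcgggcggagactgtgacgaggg
P4ha3: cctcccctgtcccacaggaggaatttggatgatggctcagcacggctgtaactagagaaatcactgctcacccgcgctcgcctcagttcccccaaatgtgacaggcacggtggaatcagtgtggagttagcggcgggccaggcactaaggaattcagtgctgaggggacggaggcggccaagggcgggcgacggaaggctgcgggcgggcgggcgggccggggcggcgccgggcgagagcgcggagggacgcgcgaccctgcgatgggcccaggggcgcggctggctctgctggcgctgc
Serpinh1: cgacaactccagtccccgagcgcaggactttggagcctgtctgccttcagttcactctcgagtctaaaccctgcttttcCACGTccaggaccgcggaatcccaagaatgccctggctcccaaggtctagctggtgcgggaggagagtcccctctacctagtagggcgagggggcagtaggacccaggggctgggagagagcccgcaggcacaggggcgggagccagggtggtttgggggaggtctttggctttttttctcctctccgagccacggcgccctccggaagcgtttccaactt

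Such windows were found for 6 of the 10 genes: P4ha1, P4ha2, P4ha3, Plod1, Serpinh1 and Pcolce. For P4ha2 and Pcolce the start used, at 54100924 and 137611404, lay inside the gene as annotated in GENCODE M21. Their annotated 5′ ends are at 54100095 and 137613784, and motifs around those were not searched. ACGTG was present in 3 of the 6, with 1 match in P4ha1, 2 in P4ha2 and 1 in Serpinh1, and in 19.6% of all 32851 windows. The GC box GGGCGG was present in 6 of 6 and in 35.7% of all windows. The heat shock element core GAANNTTC was present only in the Plod1 window among the 6, and in 7.86% of all. CCAAT (37.4% of all) and the AP-1 site TGANTCA (7.81% of all) were in none of the 6. All 5 motifs were searched on both strands, and a match is a run of letters, not a shown binding site. ACGTG was in the windows of both genes that did not pass the estradiol test, P4ha1 and P4ha2, and in 1 of the 4 windows of genes that rose, that of Serpinh1. The genes without a window, Plod2, Lox, Loxl1 and Loxl2, all rose, and a link between motif and response was not tested.

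P4ha1 encodes the widely expressed alpha subunit and was the most abundant of the 3. Its level was 70.4 and 67.8 CPM after oil and 96.8 and 81.0 after estradiol in control stroma, and 55.2 and 72.8 against 99.7 and 74.2 in deleted stroma. The groups did not overlap within either genotype, but in deleted stroma the closest libraries were 72.8 and 74.2 CPM. Its log2 fold change with estradiol was 0.36 ± 0.22 (SE) in control (edgeR adjusted p = 0.229) and 0.44 ± 0.22 in deleted stroma (adjusted p = 0.162).

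P4ha2, another alpha subunit, known from cartilage and bone, had 15.1 and 20.5 CPM in control oil and 31.4 and 22.3 in control estradiol. In deleted stroma it had 19.1 and 23.5 CPM in oil and 39.8 and 33.8 in estradiol. The log2 fold change was 0.59 ± 0.26 (SE) in control (edgeR adjusted p = 0.110) and 0.79 ± 0.25 in deleted stroma (adjusted p = 0.0508). The latter fell just short of the threshold, and it passed with no filter on low counts (adjusted p = 0.0333) in a fit of the deleted groups alone (adjusted p = 0.0202), and without control oil library 1 or 2 (adjusted p = 0.0282 and 0.0280).

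P4ha3, the third alpha subunit and the least abundant member, was nearly silent in oil. It had 7 and 0 reads after oil and 94 and 43 after estradiol in control stroma, and 4 and 9 against 76 and 67 in deleted stroma. A count of 0 allows up to 3 reads, and no oil library exceeded 9 reads while no estradiol library was below 43. The fitted change was 16.6-fold in control (log2 4.05 ± 0.78 SE, edgeR adjusted p = 0.00644) and 11.7-fold in deleted stroma (log2 3.55 ± 0.71, adjusted p = 0.00910). In control stroma it was 65th of 13347 genes by log2 fold change. The size rests on a handful of reads: it was log2 3.11 without control oil library 2, which had none, and 8.96 without control oil library 1, a fitted value that depends on the prior count and is no bound. In deleted stroma it was 3.10 without oil library 1 (adjusted p = 0.0625), 4.24 without oil library 2 and 3.38 without estradiol library 1 (adjusted p = 0.0649).

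Within the alpha subunits, the reads of P4ha3 made up 0.638% ± 0.902 (SD, n = 2) in control oil and 7.65% ± 2.32 in control estradiol. In deleted stroma they made up 1.15% ± 0.430 in oil and 9.02% ± 0.131 in estradiol. P4ha1 was the largest part, with 76.5% ± 3.40 (SD, n = 4) over the oil libraries and 67.4% ± 4.86 over the estradiol libraries of both genotypes. The ranges, 73.6% to 81.2% and 62.4% to 73.7%, overlapped, and the difference did not pass in a test that pooled the genotypes (2-sided exact permutation test, p = 0.0571, adjusted over 4 such ratios 0.114). Within a genotype the libraries did not overlap, at 76.8% and 81.2% after oil against 68.5% and 73.7% after estradiol in control, and 73.6% and 74.5% against 62.4% and 65.1% in deleted stroma. P4hb, which encodes the partner subunit, rose from 402 ± 63.0 to 1086 ± 25.5 CPM in control stroma (log2 1.44 ± 0.18 SE, edgeR adjusted p = 0.00137). It rose by 1.26 ± 0.18 in deleted stroma (adjusted p = 0.00284). The test did not compare P4hb with the alpha subunits.

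Plod1 encodes the lysyl hydroxylase that acts mainly on lysines of the triple helix. It had 76.7 and 77.2 CPM after oil and 158 and 149 after estradiol in control stroma, and 74.1 and 71.4 against 169 and 147 in deleted stroma. Replicates lay close together, and the rise was 2-fold in control (log2 0.997 ± 0.16 SE, edgeR adjusted p = 0.00320) and 2.17-fold in deleted stroma (log2 1.12 ± 0.16, adjusted p = 0.00278).

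Plod2 encodes the lysyl hydroxylase of the telopeptides, the ends of the chains from which stable hydroxylysine cross-links arise. It had 15.8 and 29.0 CPM after oil and 107 and 52.1 after estradiol in control stroma, and 22.6 and 30.9 against 93.9 and 72.6 in deleted stroma. Control estradiol library 1 stood well above library 2. The change was log2 1.83 ± 0.39 (SE) in control (edgeR adjusted p = 0.00959) and 1.64 ± 0.39 in deleted stroma (adjusted p = 0.0169). Without control estradiol library 1 the control value was 1.23 and no longer passed (adjusted p = 0.0745). In deleted stroma it no longer passed without oil library 1 (1.43, adjusted p = 0.0998), estradiol library 1 (1.45, adjusted p = 0.114) or estradiol library 2 (1.82, adjusted p = 0.0574). Plod3, a lysyl hydroxylase that also adds sugars and is not 1 of the 10, rose by 1.15 ± 0.19 in control stroma (adjusted p = 0.00370). The Plod2 share of the 3 Plod genes was 18.4% ± 4.78 (SD, n = 4) in oil and 25.9% ± 5.27 in estradiol, a difference that did not pass (2-sided exact permutation test, p = 0.114, adjusted 0.152).

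Serpinh1, on the minus strand of chromosome 7 (mm10, 99345376 to 99353239), was by far the most abundant member. It had 530 and 507 CPM after oil and 3478 and 3201 after estradiol in control stroma, and 548 and 689 against 3686 and 2987 in deleted stroma. All 4 estradiol libraries stood far above all 4 oil libraries. The rise was 6.44-fold in control (log2 2.69 ± 0.22 SE, edgeR adjusted p = 2.54e-04) and 5.39-fold in deleted stroma (log2 2.43 ± 0.21, adjusted p = 6.77e-04). Its reads were 65.9% to 69.9% of all reads of the 10 genes in the oil libraries and 83.1% to 86.2% in the estradiol libraries. The summed level of the other 9 genes was 232 to 297 CPM in oil and 511 to 711 CPM in estradiol, so the groups stayed apart without Serpinh1.

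**Figure D2:**
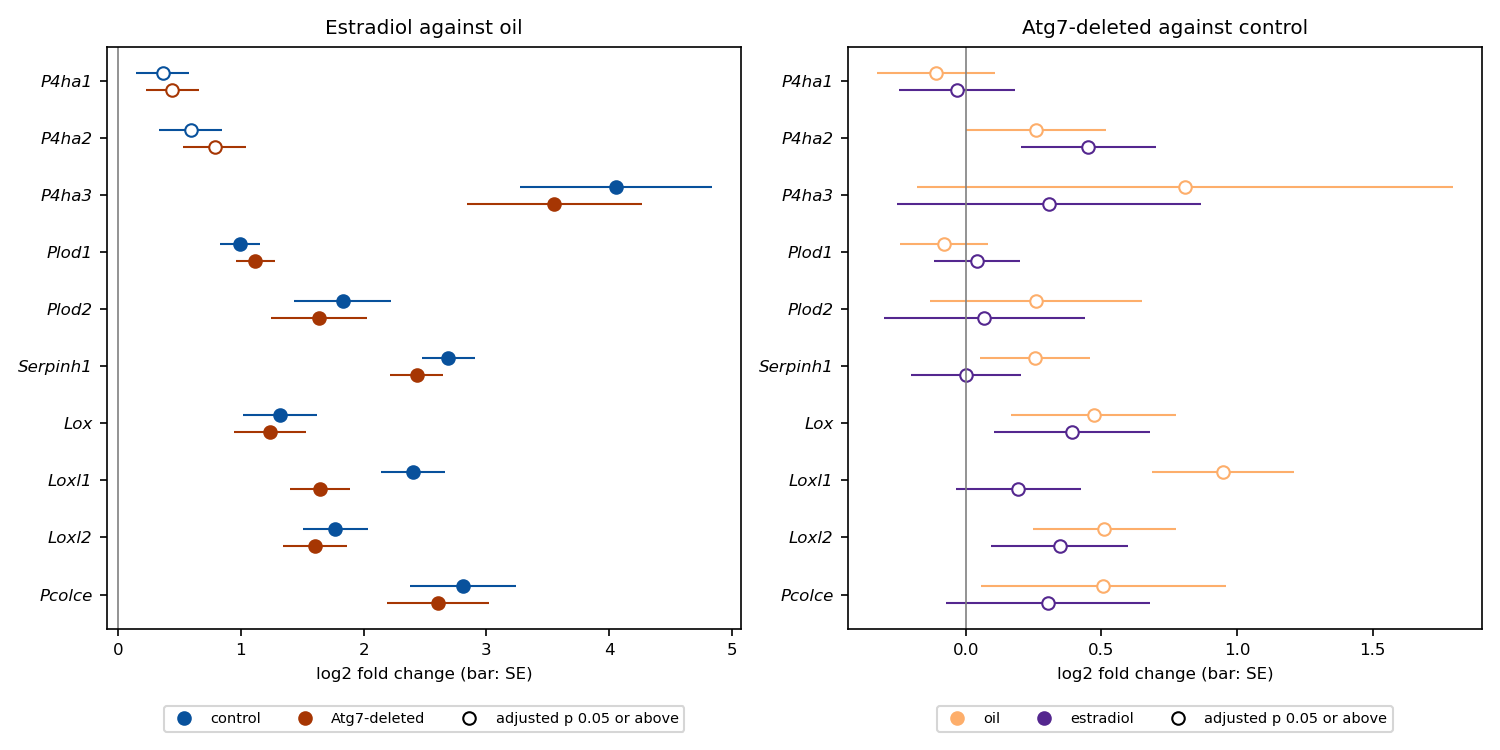
Fitted log2 fold changes of the 10 genes with SE bars, for estradiol against oil in each genotype (left) and for Atg7-deleted against control in each treatment (right). Filled points have an edgeR adjusted p below 0.05. On the left 8 genes are filled in both genotypes and P4ha1 and P4ha2 are open, and on the right all points are open.

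Pcolce protein binds the propeptide at the carboxyl end of procollagen and speeds its removal by the protease BMP1. It had 3.94 and 7.79 CPM after oil and 34.8 and 47.0 after estradiol in control stroma, and 5.37 and 11.2 against 39.0 and 61.8 in deleted stroma. Library 2 was the higher of each pair, the reverse of most members in the estradiol groups. The rise was 7-fold in control (log2 2.81 ± 0.43 SE, edgeR adjusted p = 0.00264) and 6.08-fold in deleted stroma (log2 2.60 ± 0.42, adjusted p = 0.00392). The deleted value was 2.17 without deleted oil library 1 and 3.23 without deleted oil library 2. The control value was 2.41 without control oil library 1 and 3.33 without control oil library 2. Bmp1 itself did not pass, with log2 fold changes of 0.53 ± 0.30 (adjusted p = 0.210) and 0.05 ± 0.29 (adjusted p = 0.914).

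Lox encodes the founding lysyl oxidase of fibrillar collagen and elastin. It had 18.8 and 14.9 CPM after oil and 54.9 and 29.0 after estradiol in control stroma, and 22.4 and 24.3 against 59.0 and 51.3 in deleted stroma. Control estradiol library 2 lay nearer to the oil libraries than to library 1. The change was log2 1.32 ± 0.30 (SE) in control (edgeR adjusted p = 0.0121) and 1.24 ± 0.29 in deleted stroma (adjusted p = 0.0173). Without control estradiol library 1 it was 0.79 (adjusted p = 0.0870), and in a fit of the control groups alone its adjusted p was 0.0542. In deleted stroma it stayed between 1.14 and 1.34 but did not pass when any 1 of the 4 deleted libraries was left out (adjusted p 0.0664 to 0.113).

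Loxl1, known for its part in elastic fibres, had 6.15 and 7.44 CPM after oil and 42.7 and 29.0 after estradiol in control stroma, and 12.3 and 13.9 against 41.6 and 40.6 in deleted stroma. The 4 oil libraries fell in 2 levels by genotype, while the estradiol libraries of the genotypes overlapped. The rise was 5.29-fold in control (log2 2.40 ± 0.26 SE, edgeR adjusted p = 7.96e-04) and 3.13-fold in deleted stroma (log2 1.65 ± 0.24, adjusted p = 0.00299). Loxl2, a lysyl oxidase of basement membrane and fibrillar collagens, had 24.1 and 37.9 CPM after oil and 117 and 94.4 after estradiol in control stroma, and 40.1 and 48.1 against 155 and 114 in deleted stroma. It was the most abundant member of its family in every library, and rose 3.41-fold in control (log2 1.77 ± 0.27, adjusted p = 0.00236) and 3.05-fold in deleted stroma (log2 1.61 ± 0.26, adjusted p = 0.00408).

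Among all 5 lysyl oxidase genes, Loxl2 gave 43.5% ± 5.60 (SD, n = 2) of the reads of oil libraries and 52.5% ± 4.52 of those of estradiol libraries in control stroma. Loxl1 gave 9.70% ± 0.541 after oil and 17.6% ± 0.623 after estradiol in control stroma, and 13.7% ± 0.317 and 16.2% ± 2.02 in deleted stroma. Loxl3, not a member, went the other way in share, from 20.4% ± 3.70 to 9.27% ± 0.616 in control and from 15.4% ± 1.13 to 9.79% ± 1.03 in deleted stroma. The level of Loxl3 was 14.6 ± 5.32 CPM after oil and 18.7 ± 3.19 after estradiol in control stroma (log2 0.36 ± 0.29 SE, edgeR adjusted p = 0.382). In deleted stroma its level was 14.8 ± 2.65 CPM after oil and 24.9 ± 0.909 after estradiol, and it did not pass there either. Its mean level thus did not fall in either genotype. The share of Lox itself was 24.6% ± 5.0 (SD, n = 4) in oil and 20.9% ± 2.64 in estradiol (2-sided exact permutation test, p = 0.257, adjusted 0.257). These shares were not tested one by one except for that of Lox.

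**Figure D3:**
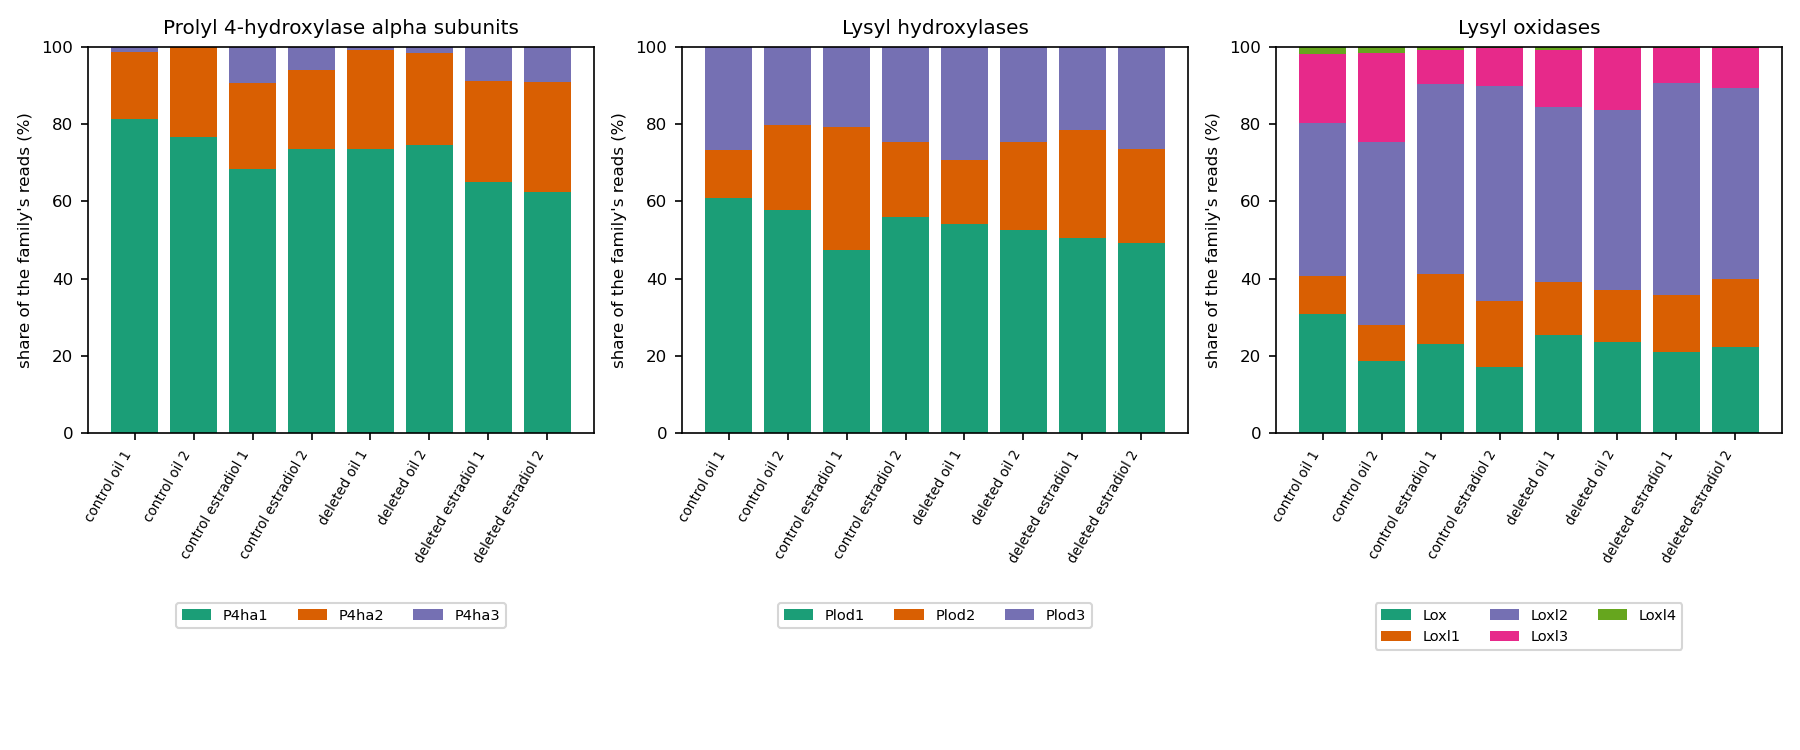
Share of the reads of each enzyme family, in percent, given by each of its genes in the 8 libraries. P4ha1 gives 62.4% to 81.2% of alpha subunit reads, the P4ha3 segment is visible mainly in the estradiol libraries, and Loxl3 takes a smaller share of lysyl oxidase reads after estradiol than after oil.

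Deletion of Atg7 changed none of the 10 genes past the threshold, in oil or in estradiol. By edgeR's quasi-likelihood test 0% of the 13347 genes passed in either treatment, with 339 genes at an unadjusted p under 0.05 in oil and 403 in estradiol, and DESeq2 also called 0 genes in each. Of the 10, 1 had an unadjusted p under 0.05 in oil and 0 in estradiol. Averaged over the treatments 0% passed in edgeR (543 unadjusted), DESeq2 called 3 genes and no member, and 2 members had an unadjusted p under 0.05. The median log2 difference of the 10 was 0.36 in oil and 0.25 in estradiol, against -0.01 over all genes in both, and 8 of 10 lay above 0 in each, against 48.5% and 47.9% of all genes. The oil and estradiol comparisons share no library. Markers of cell types leaned with the deletion too, none of them past the threshold, and their part in these values was not tested. In oil 11 of 11 fibroblast markers (median 0.39) and 10 of 10 smooth muscle markers (0.44) lay above 0, against 2 of 16 epithelial markers (-0.58). In estradiol it was 7 of 11 (0.24), 6 of 10 (0.04) and 2 of 16 (-0.35). Of the macrophage markers 9 of 10 lay above 0 in oil (median 0.38) and 8 of 10 in estradiol (0.56). Of the pericyte markers it was 6 of 6 in oil (0.24) and 3 of 6 in estradiol (-0.0024). Of the endothelial markers it was 4 of 13 in oil (-0.14) and 1 of 13 in estradiol (-0.23).

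Loxl1 was the member with the smallest p in oil: its level was 6.79 ± 0.907 CPM (SD, n = 2) in control and 13.1 ± 1.09 in deleted stroma. That is a log2 difference of 0.95 ± 0.26 SE, with a 95% interval of 0.35 to 1.54 (edgeR unadjusted p = 0.00564, adjusted p = 1). In estradiol its difference was 0.19, with an interval of -0.33 to 0.71. Averaged over treatments it was 0.57 (interval 0.18 to 0.97, unadjusted p = 0.00968), followed by Loxl2 with 0.43 (interval 0.02 to 0.84, unadjusted p = 0.0432), both with an adjusted p of 0.999. Lox had an average difference of 0.43 with an interval of -0.04 to 0.90.

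In oil the libraries of the genotypes did not overlap for 5 of 10 members, against 24.5% of all tested genes, and were higher in deleted stroma for Serpinh1, Lox, Loxl1 and Loxl2 and lower for Plod1. In estradiol they did not overlap for 1 of 10 members, against 34.2% of all tested genes. That was P4ha2, at 31.4 and 22.3 CPM in control and 39.8 and 33.8 in deleted stroma (log2 0.45, interval -0.11 to 1.02). The intervals leave room for sizeable differences of some members, from -1.43 to 3.04 for P4ha3 in oil. They were narrower for the well-counted genes, from -0.46 to 0.46 for Serpinh1 and from -0.32 to 0.40 for Plod1 in estradiol.

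The difference in estradiol response between the genotypes passed for no member in the interaction test of edgeR, in which 0% of all genes passed (210 at an unadjusted p under 0.05, 0 in DESeq2). No member had an unadjusted p under 0.05. The smallest was that of Loxl1, whose response was 0.75 ± 0.35 (SE) lower on the log2 scale in deleted stroma (difference -0.75, 95% interval -1.54 to 0.03, unadjusted p = 0.0588, adjusted p = 1.0). The interval of Serpinh1 was -0.91 to 0.39 and that of Plod1 -0.39 to 0.64. The difference lay below 0, which is a smaller rise in deleted stroma, for 7 of 10 members. It lay below 0 for 51.1% of all tested genes. These include genes that fell with estradiol, for which a value below 0 is not a smaller response, so the shares are not alike. Across the 10 genes the control and deleted responses, which share no library, had a Pearson r of 0.98, a description over genes that are not independent replicates.

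In 3 of the 4 groups nearly all members differed between replicates in 1 direction. Within control estradiol 9 of 10 were higher in library 1, within deleted estradiol 9 of 10 were higher in library 1, within deleted oil 1 of 10 was, and within control oil 4 of 10 were. The median difference between replicates, on the log2 scale and without sign, was 0.46 for the members and 0.26 for all tested genes in control estradiol, and 0.31 and 0.23 in deleted estradiol. It was 0.38 and 0.40 in control oil and 0.31 and 0.31 in deleted oil. Over the 45 pairs of members, Pearson's r of log2 CPM over the 8 libraries ran from 0.70 to 0.99 with a median of 0.91. After subtraction of the group means it ran from -0.60 to 0.99 with a median of 0.50. These are descriptions over libraries that share the estradiol contrast.

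The gene most like each member, by Pearson's r of log2 CPM over the 8 libraries among 8700 genes, was Maged2 for Serpinh1 (r = 0.998), Nrg2 for Plod2 (0.997), Ptprs for Loxl2 (0.996), Usp5 for Plod1 (0.996) and Pdcd5 for Pcolce (0.996). It was Scube1 for Loxl1 (0.995), Ccl8 for P4ha3 (0.993), Prrx2 for Lox (0.989), Lrp1 for P4ha2 (0.986) and Pofut2 for P4ha1 (0.973). Serpinh1 had 669 genes with an r over 0.95 and P4ha1 had 2. After subtraction of the group means, r with these partners ran from 0.78 for Usp5 with Plod1 to 0.998 for Nrg2 with Plod2, and was 0.94 for Maged2 with Serpinh1. Each partner was picked as the highest of 8700 genes on these same 8 libraries, so these values are no independent check of likeness.

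The other genes of collagen making were taken from lists of related steps. Of 13 modification and folding partners in the ER, 11 rose in control stroma and 10 in deleted stroma, and none fell. Among all tested genes the share that rose was 15.8% in control and 13.1% in deleted stroma. The prolyl isomerase gene Fkbp10 rose by log2 2.65 ± 0.21 (SE, edgeR adjusted p = 2.54e-04), Fkbp14, another of its family, by 2.82 ± 0.40 (adjusted p = 0.00191), and the prolyl 3-hydroxylase gene P3h1 by 1.86 ± 0.22 (adjusted p = 0.00110). The list's median was 1.41 in control and 1.26 in deleted stroma. P3h2 and Tmem38b did not pass in either genotype, and Colgalt2 did not pass in deleted stroma.

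Of 11 tested genes of procollagen export (12 listed), 5 rose in each genotype, with medians of 0.45 and 0.40. In control stroma 15.8% of all tested genes rose, and in deleted stroma 13.1%. Creb3l1, a transcription factor that drives secretory genes in collagen-making cells, rose by 2.94 ± 0.36 in control (edgeR adjusted p = 0.00112), and the COPII coat gene Sec13 by 1.77 ± 0.24 (adjusted p = 0.00170). Mia3, which encodes the collagen export receptor TANGO1, had -0.25 ± 0.16 (adjusted p = 0.254). Of 7 tested genes of propeptide removal and other cross-linking (10 listed), 3 rose in control and 1 in deleted stroma. The amino-propeptidase gene Adamts2 rose in both, by 2.49 ± 0.39 and 2.15 ± 0.39 (adjusted p = 0.00284 and 0.00590).

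Fibrillar collagens are the main substrates of these enzymes. Of 9 tested fibrillar collagen genes (11 listed), 7 rose in each genotype, with medians of 2.39 and 2.22. The share of all tested genes that rose was 15.8% in control and 13.1% in deleted stroma. Col1a1, the major chain of type I collagen, rose by log2 5.13 ± 0.31 (SE) in control and 5.25 ± 0.32 in deleted stroma (edgeR adjusted p = 1.57e-04 and 1.62e-04). The summed level of the fibrillar genes was 16.6-fold higher after estradiol in control and 14.6-fold higher in deleted stroma, against 5.12-fold and 4.47-fold for the 10 enzymes and helpers and 2.78-fold and 2.56-fold for the ER partners. Serpinh1 gave most of the sum of the 10 and of the reads in the ratio below. Without it, the other 9 summed to 232 and 263 CPM after oil and 655 and 511 after estradiol in control stroma. Reads of fibrillar collagens per read of the 10 genes were 0.452 ± 0.108 (SD, n = 4) over the oil libraries and 1.49 ± 0.243 over the estradiol libraries. All 4 estradiol libraries, from 1.14 to 1.70, were above all 4 oil libraries, from 0.332 to 0.567. The 2-sided exact permutation p of 0.0286 is the smallest that 4 against 4 libraries allow, and adjusted over the 4 ratios it was 0.114.

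**Figure D4:**
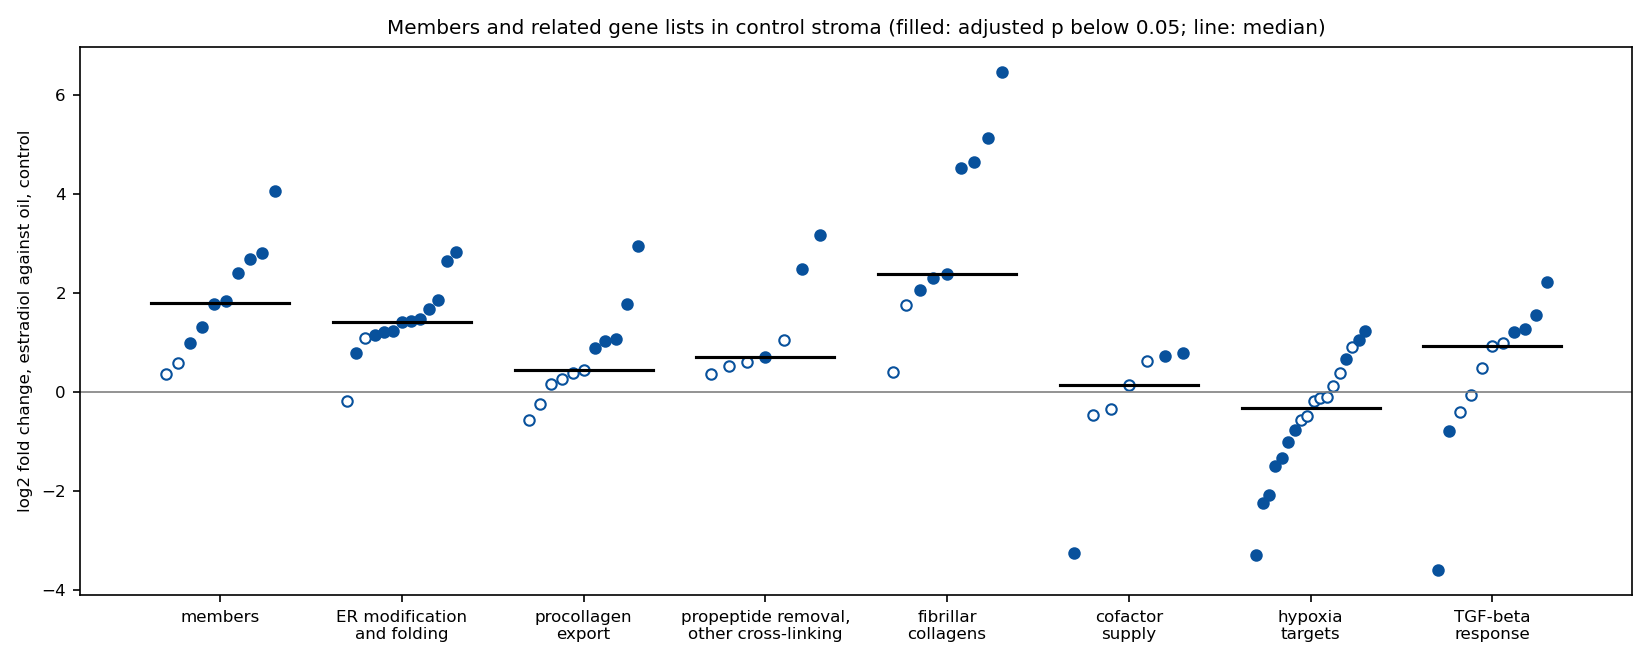
Fitted log2 fold changes of estradiol against oil in control stroma for the 10 members and the tested genes of related lists, 1 point per gene. Filled points have an edgeR adjusted p below 0.05 and lines are list medians. The members (median 1.80) lie between the fibrillar collagens (2.39) and the ER partners (1.41), and hypoxia targets lie on both sides of 0.

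Targets of the hypoxia-inducible factors, to which several P4ha, Plod and Lox genes are known to belong, did not move together. Of 18 tested (19 listed), 3 rose and 7 fell in control stroma, and 2 rose and 5 fell in deleted stroma. Of all tested genes 15.8% rose and 14.0% fell in control, and 13.1% rose and 11.2% fell in deleted stroma. Vegfa fell by 2.09 on the log2 scale and Slc2a1, a glucose transporter gene, fell by 2.25 (edgeR adjusted p = 0.00117 and 0.00296), while the glycolytic gene Pgk1 rose by 1.23 ± 0.29 (adjusted p = 0.0128). Of 11 tested genes of the transforming growth factor beta response (12 listed), 4 rose and 2 fell in control, with Fn1 at 1.27 ± 0.16 and Tgfbi at -3.59 ± 0.46 (adjusted p = 0.00128 and 0.00137). Of this list 2 genes, Acta2 and Tagln, are also smooth muscle markers, and both rose in control stroma. None of the genes of these lists passed for the deletion or the interaction in edgeR.

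Markers of other cell types moved with estradiol as well, and their part in the results was not tested. The summed level of 16 epithelial markers was 6224 to 18391 CPM in control oil, 1504 to 3104 in control estradiol, 4888 to 11472 in deleted oil and 1535 to 2064 in deleted estradiol, and 8 of 16 fell in control stroma and 6 in deleted stroma. Over all tested genes 15.8% rose and 14.0% fell in control, and 13.1% rose and 11.2% fell in deleted stroma. None of the 16 epithelial markers was at 0 in any library. In oil these sums were above those of the 11 fibroblast markers, 2080 to 2408 CPM in control and 2466 to 2939 in deleted stroma, and no fibroblast marker was at 0. The RNA labelled stromal thus also held epithelial transcripts. The summed level of 10 smooth muscle markers was 1655 to 3718 CPM in control oil and 6576 to 6739 in control estradiol, with 5 that rose, and 3202 to 4218 and 6421 to 7356 CPM in deleted stroma, with 4 that rose and 1 that fell. The summed level of 11 fibroblast markers was 1.23-fold higher after estradiol in control and 1.14-fold higher in deleted stroma. For the 10 genes it was 5.12-fold and 4.47-fold higher. Such sums weigh abundant genes most: Serpinh1 among the 10, and among the markers Dcn, which fell in control stroma. By median log2 fold change the markers stood at 1.01 in control and 0.88 in deleted stroma, against 1.80 and 1.62 for the 10. Of the fibroblast markers 6 rose in each genotype and 1 fell in control. Of 13 endothelial markers 1 rose and 3 fell in each genotype, none of 6 pericyte markers passed, and of 10 macrophage markers 3 rose and 1 fell in control and 1 rose and 1 fell in deleted stroma. In control stroma 1 tested mesothelial marker fell, and the 1 tested lymphocyte marker did not pass.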

How the data were processed

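Stromal RNA of 8 libraries was sequenced with QuantSeq. The authors deposited 1 file of raw read counts per library, not normalized, as the values show (only whole numbers, and totals that differ between files). Bowtie2, edgeR and build mm10 are named in the submitters' processing notes, without versions. How reads were counted, and on which annotation, is not given in the sources used here. In GENCODE M21 no other gene overlaps the last 500 bases of a member. For 35 repeated symbols only the line with most counts was used, and no member was among them.

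Genes were kept with filterByExpr (minimum count 10, minimum total 15) and scaled with TMM. Quasi-likelihood tests ran in edgeR 4.0.16 (R 4.3.3) on 1 model with a mean per group, with p-values adjusted over 13347 genes (threshold 0.05) and 4 residual degrees of freedom. CPM use TMM-scaled totals. SE came from the fold change and its test statistic. The code was tested on simulated counts. Alternatives were DESeq2 1.42.0, other scalings, no filter, the 2 groups alone, a replicate block and each library left out.

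The members and lists were chosen with earlier results of these data known. All 10 members are named. For likeness, genes with a mean of at least 10 CPM were compared, and predicted genes (Gm and Rik names) were passed over. From each list, up to 4 genes with the smallest adjusted p for estradiol in control stroma could be named; P3h2, Tmem38b, Colgalt2, Mia3, Bmp1, Loxl3, Plod3 and Pgk1 were named after their values were seen. Promoter windows came from RefSeq (GRCm38.p6).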

Additional observations from a re-analysis of the deposited data

How the results depend on the processing

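The 8 members called for estradiol in control stroma were 8 with DESeq2, its size factors, library totals, no filter and the replicate block, 7 in a fit of the control groups alone, and 6 to 8 when 1 library was left out. In deleted stroma the count was 8 in the same fits except 9 with no filter and 9 with the deleted groups alone, and it ran from 5 to 9 when 1 library was left out (5 without deleted estradiol library 1 or deleted oil library 1). Plod1, Serpinh1, Loxl1, Loxl2 and Pcolce passed in each of the 8 leave-out fits in both genotypes. Over all genes the main counts were 3978 and 3242, and they were 4094 and 3423 with the replicate block, 2305 and 4257 with only the groups compared, and 1505 to 4168 and 740 to 4345 with 1 library left out. Replicate numbers are shared by labels only. The correlation of library 1 minus library 2 differences between groups was -0.23 for control oil with control estradiol, 0.49 for control oil with deleted oil, -0.17 for control estradiol with deleted oil, -0.03 for control oil with deleted estradiol, 0.23 for both estradiol groups and -0.01 for deleted oil with deleted estradiol. With that block 0 members were called for the deletion or the interaction.

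No member was called for the deletion or the interaction in any fit, so the changes of sign that follow are of values within their error, and the cause was not tested. The Serpinh1 deletion difference in estradiol was 0.0152 with library totals, 0.00203 with no filter and 0.0149 with only the groups compared, and the Plod1 average deletion difference was 0.0172 with library totals. With 1 library left out, deletion differences in oil ran from -0.324 to 0.0741 for P4ha1, -0.135 to 5.71 for P4ha3, -0.0856 to 0.730 for Plod2 and -0.115 to 1.03 for Pcolce. In estradiol they ran from -0.264 to 0.163 for P4ha1, -0.102 to 0.884 for P4ha3, -0.0671 to 0.138 for Plod1, -0.358 to 0.672 for Plod2, -0.165 to 0.140 for Serpinh1, -0.0590 to 0.496 for Loxl1 and -0.0689 to 0.591 for Pcolce. On average they ran from -0.187 to 0.0259 for P4ha1, -0.0739 to 0.0288 for Plod1 and -0.0500 to 0.465 for Plod2. Interactions ran from -0.153 to 0.289 for P4ha1, -0.0323 to 0.461 for P4ha2, -5.41 to 0.442 for P4ha3, -0.661 to 0.414 for Plod2, -0.466 to 0.450 for Lox, -0.487 to 0.0988 for Loxl2 and -0.720 to 0.415 for Pcolce. P4ha3 could not be tested between the oil groups alone. Depth limits P4ha3 most, with at most 9 reads per oil library.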

Other observations

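Vitamin C (ascorbate) is the cofactor that keeps prolyl and lysyl hydroxylases active, and in mice Gulo encodes the enzyme of the last step of its synthesis. Gulo reads numbered 2769 and 1138 (control) and 2063 and 876 (deleted) after oil, and 301 and 165 (control) and 185 and 115 (deleted) after estradiol. All oil libraries were above all estradiol libraries. It fell by 3.24 on the log2 scale in control stroma and fell by 3.16 in deleted stroma (edgeR adjusted p = 0.00326 and 0.00459). Its annotated 3′ end lies 5238 bases from that of Clu, which runs toward it. Clu had 1517 to 4577 reads in oil and 1171 to 1974 in estradiol and did not pass (adjusted p = 0.133 and 0.365). The summed epithelial markers also fell with estradiol, to 0.187 of the oil level in control and 0.220 in deleted stroma, and their part in the Gulo values was not tested. Of the 6 other cofactor genes the copper chaperone gene Atox1 (log2 0.79 ± 0.24 SE, adjusted p = 0.0383) and the zinc transporter gene Slc39a13 (0.73 ± 0.23, adjusted p = 0.0422) rose in control stroma, and neither passed in deleted stroma.

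Serpinh1 protein, Hsp47, is itself classed as a heat shock protein, and it rose with estradiol. The values of 6 other genes of heat shock proteins and chaperones, picked after the data were seen and no fixed list, were as follows. In control stroma Hspa1b fell by 1.52, Hspb1 fell by 1.39, Dnajb1 fell by 1.33, Hsph1 fell by 1.24 and Hsp90aa1 fell by 1.11 on the log2 scale (edgeR adjusted p = 0.00236, 0.00200, 0.0102, 0.0133 and 0.0456). In deleted stroma Hspa1b fell by 1.76, Hspb1 fell by 1.68, Dnajb1 fell by 1.55 and Hsph1 fell by 1.02 (adjusted p = 0.00200, 0.00153, 0.00709 and 0.0325), and Hsp90aa1 did not pass (-0.73, adjusted p = 0.161). The constitutive chaperone gene Hspa8 passed in neither genotype (-0.26 and -0.64, adjusted p = 0.419 and 0.0715).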
